A study of Mus musculus with 8 samples.

Results

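Aminoacyl-tRNA synthetases are the enzymes that load each amino acid onto its tRNA before it is used by the ribosome. The cytosol and the mitochondria mostly use separate enzymes, both encoded in the nucleus. In mammals a number of the cytosolic enzymes are held in a multi-synthetase complex by 3 scaffold proteins, Aimp1, Aimp2 and Eef1e1. Dividing B cells of the germinal centre (GC), the structure in which B cells mutate their antibody genes and compete for help from T cells, build protein at a high rate, and MYC is known as an activator of genes of protein synthesis.

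The members were the 38 genes whose symbol is the letter of an amino acid followed by ars, with or without a final digit, together with Farsa, Farsb, Eprs and the 3 scaffold genes. They were read by 76 of the 45056 probe sets of the array, among 18193 genes named by 1 symbol. By the same naming, 19 were cytosolic synthetases, 16 with a symbol ending in 2 were mitochondrial synthetases and 3 were scaffold proteins. All 38 genes had at least 1 probe set past the filter on low signals, as did 73 of the 76 probe sets.

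The cells came from spleens of 8-week-old mice of C57BL6 background of which both groups alike carried a Myc allele encoding MYC fused to GFP. They were taken 12 days after an injection of sheep red blood cells, an antigen that starts GC reactions. GC B cells, which bound the lectin PNA strongly and carried much CD95, were sorted by GFP into a MYC-positive fraction (4 arrays) and a MYC-negative fraction (4 arrays), in 4 stated pairs of 1 array each. The design text speaks of pools of spleen cells and the protocol of single mice, so whether a pair is 1 mouse is not settled. The comparison addresses how the MYC-positive cells differ from the MYC-negative cells of the same sort.

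Myc, which checks the labels, had a geometric mean signal of 663 on MYC-positive and 92.9 on MYC-negative arrays and differed by at least 2.58 on the log2 scale in each pair. Here and below a difference is the log2 signal of MYC-positive samples minus that of MYC-negative samples, and a gene is called at an adjusted p under 0.05 in a limma fit with the pair as a block, adjusted over all 11754 genes tested. Of 14 myeloid marker genes 11 were measured, and 7 of these were higher and 1 lower in the MYC-positive samples. Their summed signal over all 14 was higher on the MYC-positive array in each pair. The part of such cells in the results below was not tested. By pair these sums were 8972 and 1548, 4124 and 1471, 1414 and 914, and 3213 and 675 on the MYC-positive and MYC-negative arrays of pairs 1 to 4. The median difference of the cytosolic synthetases in the same pairs was 0.91, 0.87, 0.70 and 1.17. That of all genes tested was 0.026, -0.058, -0.20 and 0.0035. Whether the myeloid sums and these medians go together over the 4 pairs was not tested. Of 9 T cell markers 8 were below the filter level, as were all 4 NK cell and all 3 erythroid markers and 5 of 6 granulocyte markers. Of 7 markers of GC B cells 0 were higher and 2 lower, and of 5 measured plasma cell markers 2 were higher and 0 lower. Beside all marker counts here stand 11.2% called higher and 11.5% called lower among all genes tested. Of 7 B cell markers 0 were higher and 3 lower, with summed signals from 37888 to 49126 on MYC-positive and from 46813 to 53435 on MYC-negative arrays. In such sorted samples fewer cells of a type and less RNA per cell cannot be told apart.

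Of the 38 members 22 were higher in MYC-positive samples and 0 were lower, while 11.2% of all genes tested were called higher and 11.5% lower. At an unadjusted p under 0.05, 23 members were higher and 0 lower, against 17.0% and 19.2% of all genes. The difference was above 0 in 34 members, against 45.9% of all genes, and 23 members were higher in 4 of 4 pairs, against 19.3%. With each probe set as a row, 29 of the 73 kept probe sets of members were higher and 0 lower, against 9.03% of all kept probe sets called higher. The calls fell unevenly: 16 of 19 cytosolic synthetases and 3 of 3 scaffold proteins were called, against 3 of 16 mitochondrial synthetases. The median difference was 0.86 for the cytosolic synthetases, 1.08 for the scaffold proteins and 0.32 for the mitochondrial synthetases, where all genes tested had a median of -0.06. In 15 members every MYC-positive array stood above every MYC-negative array, and in 0 the reverse held, against 11.1% and 10.9% of all genes tested. The number of calls depended on pairs 1 and 2. Without pair 1 it was 6 and without pair 2 it was 7, where 3.38% and 3.85% of all genes were called higher. Without pair 3 it was 19 and without pair 4 it was 22, and without an intensity trend in the variance it was 11. The size of the differences moved less than the calls. The cytosolic median was 0.79, 0.88, 0.90 and 0.85 without pairs 1, 2, 3 and 4 in turn.

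**Figure D1:**
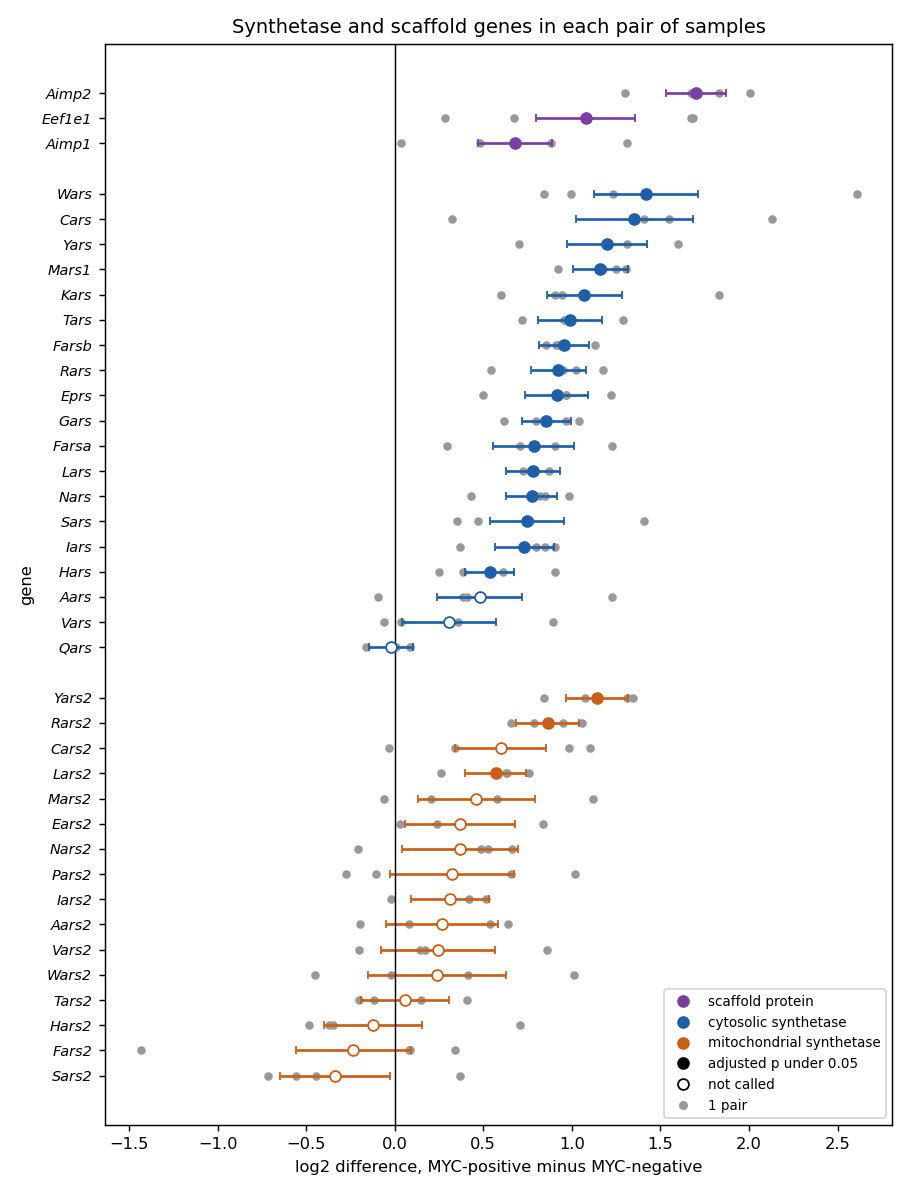
Log2 difference of each of the 38 genes, MYC-positive minus MYC-negative. Large symbols with bars are the fitted difference and its SE (filled where called), and small grey points are the 4 pairs. All 3 scaffold genes and 16 of 19 cytosolic synthetases are filled, against 3 of 16 mitochondrial synthetases.

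The scaffold proteins held the largest difference of all members. Aimp2, the core scaffold that binds several synthetases at once, had signals of 3758, 3573, 2753 and 4387 on the MYC-positive arrays of pairs 1 to 4, against 1059, 1120.5, 1118 and 1091 on the MYC-negative arrays. The groups lay far apart, and the MYC-negative arrays were nearly level with each other. The difference was 1.70 (SE 0.17, n = 4 pairs, limma adjusted p = 0.00074), a 3.25-fold higher geometric mean, and the other Aimp2 probe set gave 1.54. It was the 232nd highest of 11754 genes and was called under all 13 alternatives, with differences from 1.60 to 2.14.

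Eef1e1, a small scaffold protein also known as p18 or AIMP3, had signals of 568, 1204, 1449 and 928 on MYC-positive arrays, against 356, 376, 454 and 762 on MYC-negative arrays. Its groups overlapped, since the MYC-negative array of pair 4 stood above the MYC-positive array of pair 1. Within pairs it was higher in 4 of 4, by 0.28 to 1.68 (fitted difference 1.08, SE 0.28, limma adjusted p = 0.025). Without pair 1, 2 or 3 and without the intensity trend this call ended, with an adjusted p of up to 0.15.

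Aimp1, which binds tRNA and is also the precursor of a secreted cytokine, was the least of the scaffold genes. Its signals were 3506, 3034, 1978 and 4076 on MYC-positive arrays, against 1900.0, 2173, 1929 and 1641 on MYC-negative arrays, so that the groups overlapped, and in pair 3 both arrays were nearly equal. The difference of 0.68 (SE 0.21, limma adjusted p = 0.048) lay at the threshold, and the call was lost in 6 of 13 alternatives, among them no block and the fit without pair 1 or 2.

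Synthetases of the complex were higher together, apart from one. Of 7 measured synthetases known to sit in the multi-synthetase complex 6 were called, with a median of 0.91. With the 3 scaffold proteins 9 of 10 genes of the complex were called. The share called higher was 11.2% of all genes tested and 16.6% of those with a mean signal above 512. Mars1, the methionyl-tRNA synthetase that also charges the initiator tRNA, had signals of 2994, 2798, 2199.6 and 3034 on MYC-positive arrays, against 1262, 1478, 891 and 1345 on MYC-negative arrays. The groups did not overlap, each pair differed by 0.92 to 1.30, and the fitted difference was 1.16 (SE 0.16, limma adjusted p = 0.0020). Mars1 was called under all 13 alternatives.

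Kars charges lysine in the cytosol and, through another splice form, in mitochondria. Its signals were 3155, 3582, 2129 and 2960.3 on MYC-positive arrays and 1637, 1916, 1406 and 833 on MYC-negative arrays. No MYC-positive array fell among the MYC-negative ones, and the difference was 1.07 (SE 0.21, limma adjusted p = 0.0089). It was largest in pair 4, at 1.83, whose MYC-negative array was the lowest of all.

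Eprs joins the glutamyl and prolyl enzymes in 1 protein. It had signals of 2351, 2379, 1717 and 1542 on MYC-positive arrays and 1008, 1215, 1214 and 789 on MYC-negative arrays, without overlap (difference 0.91, SE 0.18, limma adjusted p = 0.0087). Its probe sets did not all show this: 2 others gave 0.88 and 0.76, while a dim one gave -1.29, with a geometric mean of 16.1 on MYC-positive and 39.3 on MYC-negative arrays. Averaged over its probe sets Eprs was at 0.32 (adjusted p = 0.26).

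The arginyl, leucyl and isoleucyl synthetase genes of the complex lay closely together. Rars was at 0.92 (SE 0.15), Lars, the enzyme also described as a leucine sensor of the mTORC1 pathway, at 0.78 (SE 0.15), and Iars at 0.73 (SE 0.17), all called at limma adjusted p between 0.0046 and 0.015. Lars differed by 0.72 to 0.87 in the pairs, a narrow range. The calls of Eprs, Kars, Lars and Iars ended without pair 1 and also without pair 2, at adjusted p up to 0.11, and those of Kars and Iars also without the intensity trend, at 0.050 and 0.056.

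Qars, the glutaminyl synthetase of the same complex, was the exception. Its signals were 4938, 4793, 4761 and 5813 on MYC-positive arrays, against 4908, 5359, 4478 and 5866 on MYC-negative arrays. The arrays of the groups were mixed, with the MYC-positive one higher in 2 of 4 pairs, and the difference was -0.02 (SE 0.12, limma adjusted p = 0.93). Its 3 other probe sets gave 0.12, 0.46 and -1.18, none of them called, and median centring of the arrays put Qars at 0.42. Mitochondria have no glutaminyl synthetase of this family and make their glutaminyl-tRNA with an amidotransferase built from Gatb, Gatc and Qrsl1. These 3 genes, chosen after their values were seen, were at 0.58, 0.12 and -0.28, and none was called.

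**Figure D2:**
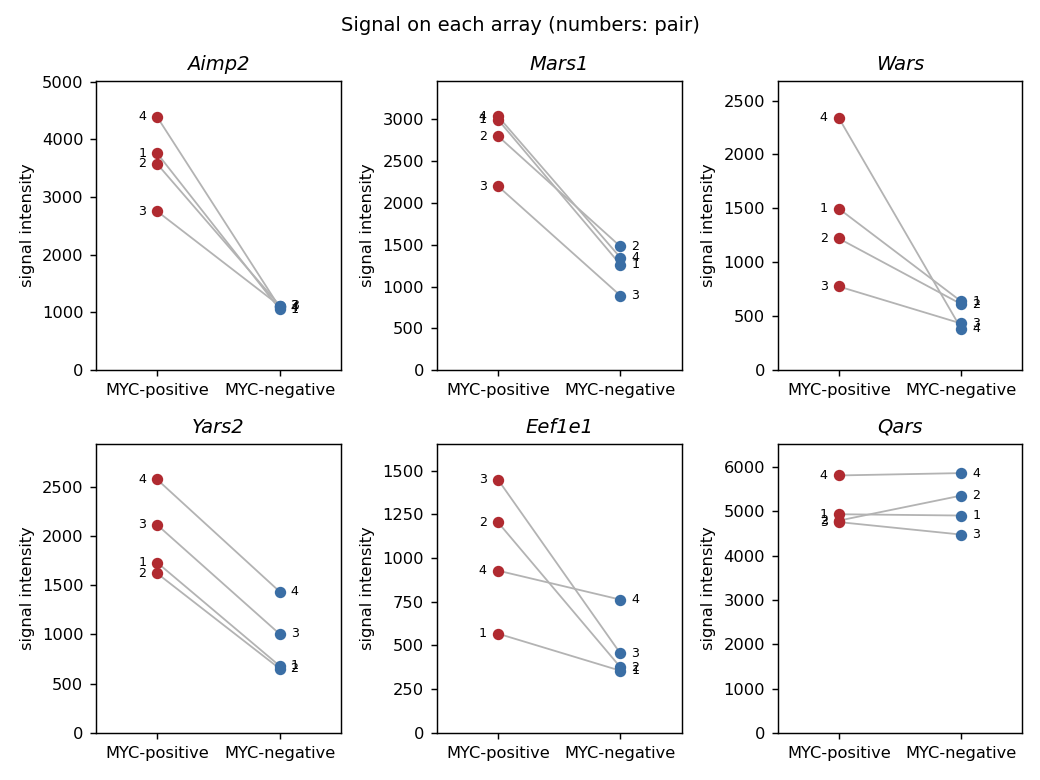
Signal intensity of 6 genes on each array (linear axis from 0), MYC-positive left and MYC-negative right, with lines joining the arrays of a pair and numbers giving the pair. Aimp2, Mars1, Wars and Yars2 do not overlap between groups, Eef1e1 does, and Qars differs by -0.02.

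Cytosolic synthetases outside the complex were higher for 10 of 12 measured members, against 11.2% of all genes tested, with a median of 0.82. Wars, the tryptophanyl enzyme and also known as a gene induced by interferon gamma, had the largest difference of the synthetases. Its signals were 1498, 1222, 776 and 2339 on MYC-positive arrays, against 638, 613, 433 and 384 on MYC-negative arrays. The groups did not overlap, but the pairs ranged from 0.84 to 2.61, with pair 4 far above the others (fitted difference 1.42, SE 0.30, limma adjusted p = 0.011). The 3 other Wars probe sets gave 1.04, 0.91 and 0.61 and were not called when each probe set was tested. The Wars call ended without pair 1 and without the intensity trend, at adjusted p up to 0.065. An interferon gamma list was called at about the rate of all genes (11.2% higher and 11.5% lower). Of its 13 measured genes 2 were higher, Ido1, which encodes a tryptophan-degrading enzyme (1.84), and Cxcl10, a chemokine gene (1.58), and 1 was lower, Ciita, which encodes the activator of MHC class II genes (-0.76). Their median was 0.10.

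Cars, the cysteinyl enzyme gene, had signals of 485, 431, 223 and 689.9 on MYC-positive arrays and 165, 163, 179 and 158 on MYC-negative arrays. Here the MYC-negative arrays were nearly level, and the MYC-positive array of pair 3 came closest to them. The difference was 1.35 (SE 0.33, limma adjusted p = 0.020), but a dimmer probe set gave -0.68 and was lower in 4 of 4 pairs, so the mean over both was 0.33 and not called. The call also ended without pair 1, without pair 2 and without the intensity trend.

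Yars, the tyrosyl enzyme, had signals of 1030.0, 1067, 583 and 1084 on MYC-positive arrays and 452, 430.1, 358 and 359 on MYC-negative arrays. All MYC-positive arrays stood above all MYC-negative ones, least so in pair 3 (difference 1.20, SE 0.22, limma adjusted p = 0.0072). For Tars, the threonyl enzyme, the MYC-positive arrays read 1519.6, 1764, 1213 and 1522 and the MYC-negative arrays 761, 909.6, 738 and 622, again without overlap. Its difference was 0.99 (SE 0.18, limma adjusted p = 0.0067). Both calls ended without pair 1 and without pair 2, at adjusted p of up to 0.062 for Yars and 0.058 for Tars.

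The phenylalanyl enzyme is built of alpha and beta subunits, encoded by Farsa and Farsb. Farsb had signals of 3741, 4286, 3788 and 3215 on MYC-positive arrays and 2067, 2259.8, 1731 and 1710.0 on MYC-negative arrays, clearly apart (difference 0.96, SE 0.14, limma adjusted p = 0.0029). Of its 3 other probe sets 2 were called higher, at 0.80 and 0.63, and one was at -0.60. Averaged over probe sets Farsb was at 0.45 (adjusted p = 0.068), its only lost call among the 13 alternatives.

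Farsa was less certain. It had signals of 1099, 858, 492 and 759 on MYC-positive arrays and 588, 524, 401 and 324 on MYC-negative arrays, which overlapped across pairs but not within them (difference 0.78, SE 0.23, limma adjusted p = 0.037). Its other 3 probe sets pointed the other way, at -1.92, -1.98 and -0.91, and the mean of all was -1.01 (adjusted p = 0.24). The first 2 of these had signals of 1.5 and 1.7 on the MYC-positive array of pair 4, against at least 77.6 on every other array. The call of Farsa also ended without pair 1, without pair 2, without the block and without the intensity trend.

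Gars and Nars encode the glycyl and asparaginyl enzymes. Gars, which like Kars serves cytosol and mitochondria, was at 0.86 (SE 0.14, limma adjusted p = 0.0044) and was called under all 13 alternatives. Nars was at 0.77 (SE 0.14, limma adjusted p = 0.0072), and its other probe set at 1.13. Its call ended without pair 1, without pair 2 and without the intensity trend, at adjusted p from 0.050 to 0.064. Neither gene overlapped between the groups.

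For Sars, the seryl enzyme, the MYC-positive arrays read 2046, 1965, 1183 and 1999 and the MYC-negative arrays 1203, 1419, 929 and 754. The MYC-positive array of pair 3 lay below 2 MYC-negative arrays of other pairs, while each pair on its own was higher by 0.35 to 1.41 (difference 0.75, SE 0.21, limma adjusted p = 0.033). The other probe set was at 0.58 and was not called.

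Hars, the histidyl enzyme, had signals of 9499.6, 9514, 11584 and 13526 on MYC-positive arrays and 6226, 8012, 6192 and 10350.2 on MYC-negative arrays. Pair 4 was high in both groups, and the difference of 0.54 was the smallest called among the cytosolic synthetases (SE 0.14, limma adjusted p = 0.024). Another Hars probe set gave 0.55 and was not called. The calls of Sars and Hars ended without pair 1, without pair 2, without the block and without the intensity trend, and that of Hars also without pair 3.

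Aars and Vars, the alanyl and valyl enzymes, were not called. Aars was at 0.48 (SE 0.24, limma adjusted p = 0.19), higher in 3 of 4 pairs, and passed after median centring, at 0.92. Vars was at 0.31 (SE 0.27, limma adjusted p = 0.45), with differences from -0.06 to 0.89 in the pairs.

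Among the 16 mitochondrial synthetases 3 were higher and 0 lower, or 4 and 0 at an unadjusted p under 0.05. These counts lie near those of all genes, of which 11.2% were higher and 17.0% were so before adjustment. The difference was above 0 in 13 of the 16, however, against 45.9% of all genes tested. Yars2, the mitochondrial tyrosyl enzyme, in which human mutations cause a myopathy with anaemia, had signals of 1729, 1619, 2111 and 2572 on MYC-positive arrays, against 681, 653, 1004 and 1435 on MYC-negative arrays. The groups did not overlap, although the highest MYC-negative array, that of pair 4, came near. The difference was 1.14 (SE 0.17, limma adjusted p = 0.0032), the other Yars2 probe set gave 1.50, and the call held under all 13 alternatives.

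Rars2, the mitochondrial arginyl enzyme, had signals of 1435, 1431, 1226 and 1170.2 on MYC-positive arrays, against 743, 687, 778 and 677 on MYC-negative arrays. Both groups were compact and lay well apart (difference 0.86, SE 0.18, limma adjusted p = 0.011), and the call ended without pair 1 and without pair 2. Lars2, the mitochondrial leucyl enzyme, had signals of 1128, 1804, 1876 and 1779 on MYC-positive arrays and 941, 1168, 1210.3 and 1053 on MYC-negative arrays. Its MYC-positive array of pair 1 was low and lay among the MYC-negative ones (difference 0.57, SE 0.17, limma adjusted p = 0.043). This call was lost in 7 of 13 alternatives, and its 2 dim probe sets gave 0.23 and -0.09.

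The other 13 mitochondrial synthetases had differences from -0.34 to 0.60, and 10 of the 13 were above 0, against 45.9% of all genes tested. Cars2 was highest among them, at 0.60 (SE 0.26, limma adjusted p = 0.13), and passed after quantile normalization and after median centring. Sars2 was lowest, at -0.34 (SE 0.31, limma adjusted p = 0.48), lower in 3 of 4 pairs and higher in pair 4.

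Among these 13, Fars2, Mars2 and Ears2 had probe sets of opposite sign. Fars2, the mitochondrial phenylalanyl enzyme, had signals of 294, 430.4, 286 and 488 on MYC-positive arrays and 278, 340.4, 772 and 459.6 on MYC-negative arrays. It was higher in 3 of 4 pairs but much lower in pair 3, through 1 high MYC-negative array, so that the fitted difference was -0.23 (SE 0.32) and became 0.17 without pair 3. Its other probe set was at 0.06. For Mars2 the MYC-positive arrays read 174, 146, 215 and 108 and the MYC-negative arrays 79.8, 97.8, 187 and 113, at 0.46 (SE 0.33), and its other probe set was at -0.25. Ears2, the mitochondrial glutamyl enzyme, had signals of 203, 187, 109 and 126 on MYC-positive arrays and 114, 158, 84.7 and 124 on MYC-negative arrays, with differences of 0.37 and -0.37 for its 2 kept probe sets. In all 3 genes the groups overlapped.

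For each amino acid with both kinds of enzyme, the cytosolic difference was the larger: in 17 of 17 pairings of genes, over 16 amino acids, with Eprs and Fars2 each counted in 2 pairings. In 12 pairings only the cytosolic enzyme was called, in 3 both were (tyrosine, arginine and leucine), and in 2 neither (alanine and valine). The gap between the differences had a median of 0.59 and was positive in 4 of 4 pairs of samples for 8 pairings. It was 1.08 for serine (SD over pairs 0.17) and 0.93 for threonine (SD 0.099), the steadiest of them. For tyrosine it was 0.06 (SD 0.49), for arginine 0.06 (SD 0.22) and for valine 0.06 (SD 0.72), each less than the spread between pairs. The gap was also smaller than its SD for alanine, histidine, leucine and asparagine. The gaps were not tested, since an exact sign-flip test over 4 pairs has 16 sign patterns, of which 2 are the most extreme, and cannot reach the threshold. A call in one enzyme and not in the other does not show that they differ.

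**Figure D3:**
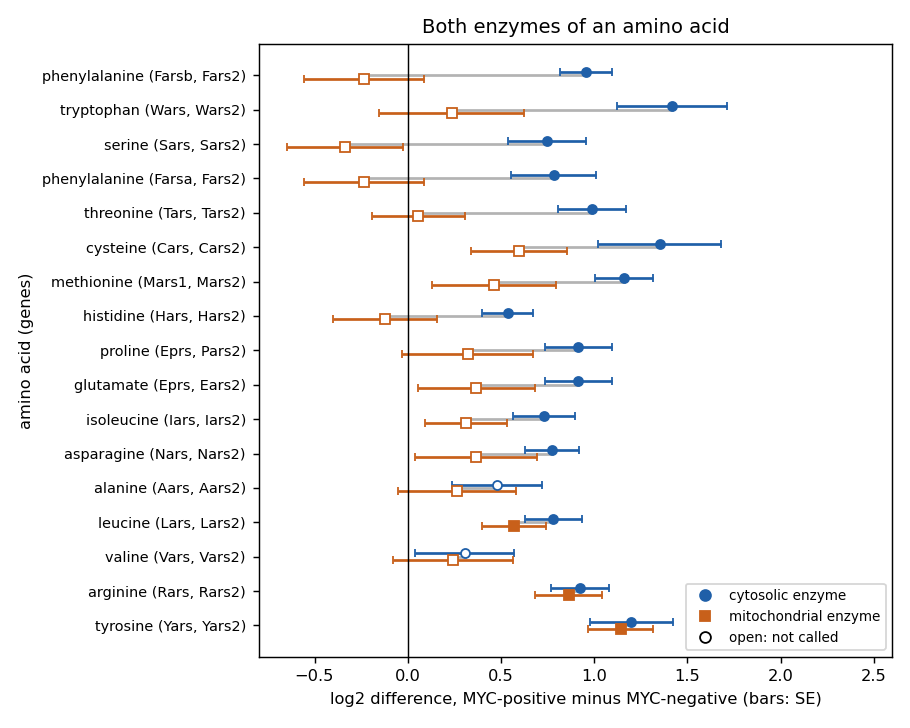
Log2 difference, MYC-positive minus MYC-negative, of the cytosolic (circles) and mitochondrial (squares) enzyme for each amino acid, with SE bars, filled where called. Rows run from the largest gap, 1.19 for Farsb and Fars2, to the smallest, 0.06 for Yars and Yars2.

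The kinds of enzyme differed in signal level, and the gap changed with the scaling of the arrays. Most mitochondrial probe sets were dim: 12 of 16 had a mean signal of 512 or less, against 2 of 19 for the cytosolic synthetases. Among all genes 16.6% were called higher above a mean signal of 512 and 6.09% at or below it, and the median SE was 0.18 and 0.40. Above that level 15 of 17 cytosolic and 3 of 4 mitochondrial synthetases were called, and at or below it 1 of 2 and 0 of 12. After quantile normalization the mitochondrial median was 0.68 and the cytosolic median 0.87, so that their gap was 0.19, against 0.54 as deposited, and the cytosolic difference was the larger in 13 of 17 pairings. Averaging a gene's probe sets gave 12 of 17, with a median gap over the pairings of 0.33. Without pair 4 it was 14 of 17 and without pair 1 it was 16 of 17. The median of all genes at or below a signal of 512 was 0.19 after quantile normalization and -0.19 as deposited, while that of genes above it hardly moved (-0.002 and 0.03). Median centring raised all differences alike, to medians of 1.30 and 0.76, and left the gap at 0.54.

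**Figure D4:**
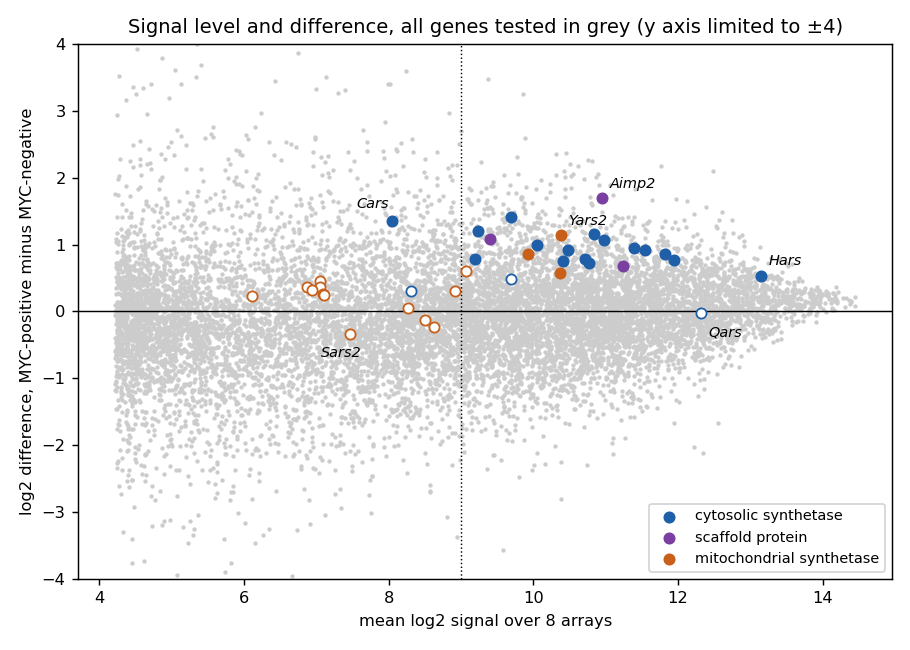
Difference on the log2 scale against the mean log2 signal over 8 arrays, all 11754 genes tested in grey and the 38 members coloured by kind, filled where called. The dotted line marks a signal of 512, below which lie 12 of 16 mitochondrial and 2 of 19 cytosolic synthetases.

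Synthetases fall into class I and class II by the fold of their catalytic domain. Class I enzymes were called for 10 of 18 members and class II enzymes for 8 of 16, with medians of 0.66 and 0.51. Eprs, which joins the glutamyl and prolyl enzymes, was counted in neither class. Within the cytosol the classes were close, with 7 of 9 and 8 of 9 called and medians of 0.92 and 0.78. Among mitochondrial enzymes 3 of 9 of class I and 0 of 7 of class II were called, with medians of 0.46 and 0.06. The share called higher was 11.2% of all genes tested and 6.09% of those with a mean signal of 512 or less. Mitochondrial class II genes were dimmer, with median signals of 157 on MYC-positive and 198 on MYC-negative arrays, against 537 and 433 for class I. The difference between the classes was not tested, nor was the part of signal level in it.

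Several cytosolic synthetase genes are known targets of ATF4, the transcription factor of the amino acid response, which binds an element with the core TGATGNAA. In a RefSeq table of promoters (build GRCm38.p6, 250 bases before to 50 bases after the gene start), 29 members had an entry. The core, on either strand, was present in 5 of 12 cytosolic synthetases (41.7%), 0 of 14 mitochondrial synthetases and 0 of 3 scaffold genes, against 2.82% of 9544 genes tested. The E-box CACGTG, the site that MYC binds with MAX, was present in 4 of 12 cytosolic and 1 of 14 mitochondrial synthetases and in 0 scaffold genes, against 11.7% of the genes tested and 17.4% of the genes called higher. The palindromic NRF1 site, searched by its full letters, was in 0 of the 29. The 5 genes with the ATF core are shown for its place near the start, from 150 bases before the start to 20 bases from it on, 5′ to 3′ on the strand of the gene, with each match to the core and to the E-box in capitals.
Aars, chr8:111033692-111033861, plus strand: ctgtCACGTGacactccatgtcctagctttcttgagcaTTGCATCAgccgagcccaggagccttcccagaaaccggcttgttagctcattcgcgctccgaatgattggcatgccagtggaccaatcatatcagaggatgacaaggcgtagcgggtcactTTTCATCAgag
Gars, chr6:55037851-55038020, plus strand: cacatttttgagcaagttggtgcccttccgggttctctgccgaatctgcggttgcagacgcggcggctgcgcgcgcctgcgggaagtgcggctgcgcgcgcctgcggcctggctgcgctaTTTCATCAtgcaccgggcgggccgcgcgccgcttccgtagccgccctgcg
Iars, chr13:49681980-49682149, plus strand: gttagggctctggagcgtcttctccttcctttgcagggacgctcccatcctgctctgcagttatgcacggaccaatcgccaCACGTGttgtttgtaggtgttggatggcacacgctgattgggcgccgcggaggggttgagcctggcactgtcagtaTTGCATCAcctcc
Tars, chr15:11399639-11399808, minus strand: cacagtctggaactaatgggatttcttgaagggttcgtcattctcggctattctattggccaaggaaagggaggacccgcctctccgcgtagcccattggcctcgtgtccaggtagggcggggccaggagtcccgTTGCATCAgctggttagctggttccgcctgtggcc
Yars, chr4:129189753-129189922, plus strand: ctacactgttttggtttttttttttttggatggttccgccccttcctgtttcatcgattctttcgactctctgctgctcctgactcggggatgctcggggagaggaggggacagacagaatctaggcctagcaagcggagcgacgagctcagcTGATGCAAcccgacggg
The core read TTGCATCA on the gene's strand in Iars, Tars and once in Aars, TTTCATCA in Gars and again in Aars, and TGATGCAA in Yars. It began 30 bases before the start in Gars and 15 before it in Tars, and 3 and 7 bases after it in Yars and Iars. Of these 5 genes Gars, Iars, Tars and Yars were called higher and Aars, which alone held 2 cores, was not. In Aars and Iars an E-box lay 146 and 69 bases before the start, in Farsb 39 bases before it, and in Tars 19 bases after it, so that this one reaches past the stretch shown. These are matches of letters, and binding was not measured.

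Genes of the amino acid response were higher for 9 of 27 measured members of a list and lower for 0, with a median of 0.46. Of all genes tested 11.2% were higher and 11.5% lower. At an unadjusted p under 0.05, 11 of the list were higher and 1 lower, against 17.0% and 19.2% of all genes. The 3 largest were Asns, the asparagine synthetase gene (2.01, SE 0.21, limma adjusted p = 0.00088), Slc7a5, which encodes a carrier of large neutral amino acids (1.89), and Shmt2, a mitochondrial enzyme of serine and folate metabolism (1.29). Atf4 itself was at 0.35 (limma adjusted p = 0.17). Its targets in the stress response were not called, with Ddit3 at -0.46 (SE 0.35), Trib3 at -0.56 (SE 0.44), Chac1 at 0.56 (SE 0.41) and Sesn2 at -0.94 (SE 0.40). Trib3 and Sesn2 were dim, with geometric means between 30.4 and 58.1 in the groups. Atf4 and these 4 genes were chosen after their values were seen.

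Other genes that handle tRNA or follow its charging were also higher in part. The counts below stand beside 11.2% higher and 11.5% lower among all genes tested, or 17.0% and 19.2% unadjusted. Among genes with a mean signal above 512 the share called higher was 16.6%. Of 17 measured genes of tRNA trimming, editing, export, amidation and selenocysteine 6 were higher and 0 lower (7 and 0 at an unadjusted p under 0.05, median 0.34), led by Elac2, which trims the 3′ end of tRNA precursors (1.32), Pstk, a kinase on the way to selenocysteyl-tRNA (1.22), and Dtd1, which removes D-amino acids from tRNA (1.07). Of 13 cytosolic elongation and termination genes 4 were higher and 0 lower (6 and 0 unadjusted, median 0.41). They were led by Eef2k, the kinase that inhibits elongation factor eEF2 (1.49), and by the release factor genes Etf1 (0.96) and Gspt1 (0.93). Of 11 mitochondrial translation factors 3 were higher and 0 lower (5 and 1 unadjusted, median 0.42): Tufm (1.07) and Gfm1 (0.89), both elongation factors, and Mrrf, a ribosome recycling factor (0.75). In a list of 11 measured control genes 1 was higher, Gusb (0.79), with a median of 0.27.

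**Figure D5:**
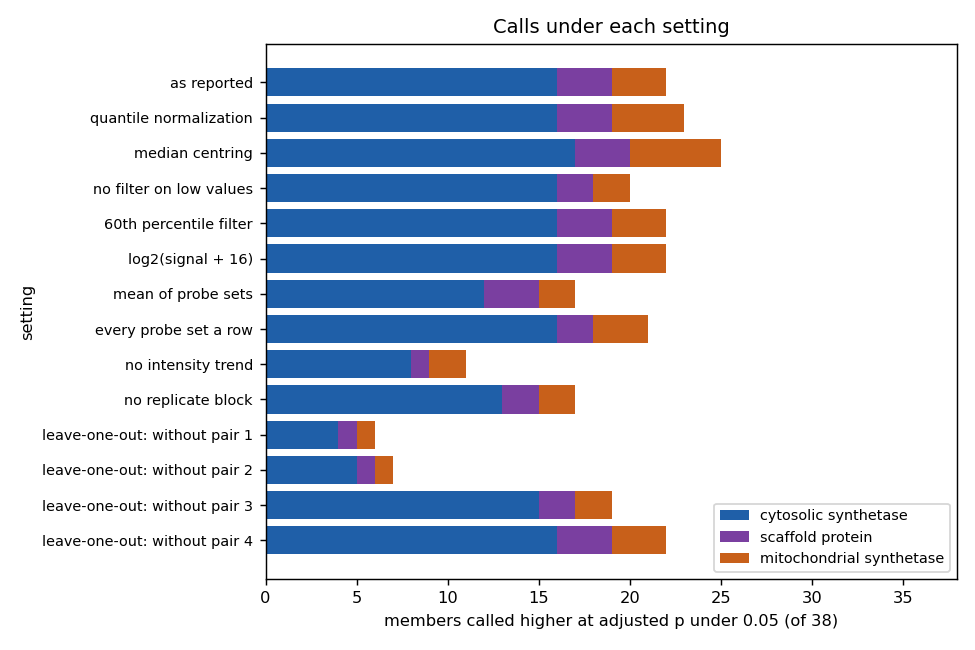
Number of members called higher, of 38, as reported and under each of 13 alternatives, split by kind of gene. The bars lie between 6 and 25, and the shortest are those without pair 1 (6), without pair 2 (7) and without the intensity trend (11).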

How the data were processed

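Per the labels' protocols, RNA of sorted GC B cells was amplified and biotin-labelled with NuGEN kits and hybridised to Affymetrix Mouse 430 2.0 arrays. The deposited values are 1 signal intensity per probe set on a linear scale, and per the submitters' processing notes the authors used MAS5. For its version, scaling target and genome build: not given in the sources used here. Here no detection calls were used. The trimmed mean signal ran from 495 to 497 over the 8 arrays, so the arrays had been scaled to each other. The 4 arrays per group limit the precision.

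Probe sets were named from the platform annotation: 34945 had 1 gene symbol, 932 had several and 9160 non-control probe sets were unnamed here. Symbols of all 38 members were found in the RefSeq table of the mouse genome. Signals were floored at 1 before taking log2. Probe sets with a mean log2 above the 40th percentile, a signal of 18.7, were kept. Each of 11754 genes was tested by its probe set of highest mean log2, with limma 3.58.1 in R 4.3.3 (lmFit, and eBayes with an intensity trend) and the pair as a block, which left 3 residual degrees of freedom. Tests were 2-sided, with Benjamini-Hochberg adjustment over all genes tested and calls under 0.05. The procedure was tested on simulated data. The alternatives were quantile normalization, median centring, no filter, a 60th percentile filter, log2(signal + 16), the mean of a gene's probe sets, each probe set as a row, no intensity trend, no block and leaving out each pair. The count of amino acids with the larger cytosolic difference was added to these after seeing the data.

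The sample descriptions name each sample's partner, and the protocol speaks of both fractions of a mouse. Paired samples' deviations from their group means correlated at 0.26, 0.17, 0.088 and 0.12 for pairs 1 to 4. Arrays that are not partners were not compared in this way, so these values do not show whether partners are more alike. The replicate numbers in the titles differ between the groups and were not used. Where pairs are not separate animals, the p-values cover only sample-to-sample spread, which may be technical.

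The members and the gene lists were chosen with earlier results of these data known. Values on each array were to be given for the 6 cytosolic synthetases, 3 scaffold proteins and 4 mitochondrial synthetases with the largest called differences, for members called lower and for members whose probe sets disagreed. The other members were to be given by difference or range, and other lists by their 3 largest called genes in each direction. Promoters came from a RefSeq table of build GRCm38.p6, which held 29 of the 38 members. Proteins were not compared here.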

Additional observations from a re-analysis of the deposited data

Results flagged for a closer look

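In 5 of 76 groups of 4 arrays, 1 array stood apart from the other 3 by the gap that Dixon's test allows to about 1 group in 20 by chance. All 5 were MYC-positive arrays. Sars read 1183 and Yars 583 in pair 3, each the lowest of its group, against at least 1965 and 1030.0 on the other MYC-positive arrays. Lars2 read 1128 in pair 1, against 1779 or more on the others. In pair 4 Gars was lowest, at 4308 against at least 4990.4, and Hars2 highest, at 426 against at most 333.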

How the results depend on the processing

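Over 13 alternatives, 418 of the single-gene values kept their direction and side of the threshold, 57 lost a call, 4 gained one and 14 changed sign, of which 1 belonged to a called gene (Farsa, -1.01 with the mean over probe sets). No member was called lower under any of them. Mars1, Rars, Gars, Yars2 and Aimp2 kept their calls in each. Members called higher numbered 11 without an intensity trend and 17 without the replicate block or with the mean over probe sets, and between 6 and 22 when a pair was left out. Genes called higher and lower over the whole array were 3204 and 546 after median centring (85.4% higher, against 49.4% as deposited and 57.2% after quantile normalization), 1989 and 2649 with each probe set as a row, 736 and 771 without the trend, and 399 to 1747 and 355 to 2057 without a pair. Without the replicate block 901 were lower. Quantile normalization put the median of all genes at 0.087 and median centring put it at 0.38. The cytosolic median was 1.30 and the scaffold median 1.52 after median centring. Quantile normalization gave a mitochondrial median of 0.68, and median centring one of 0.76. With each array centred on its median the sign turned for Fars2 (0.21), Hars2 (0.32), Qars (0.42) and Sars2 (0.10), and after quantile normalization for Fars2 (0.0045), Hars2 (0.12) and Sars2 (0.056). The mean over probe sets put Ears2 at -0.0021. Leaving out a pair gave Fars2 -0.42 to 0.17, Qars -0.055 to 0.028, Tars2 -0.059 to 0.14 and Wars2 -0.15 to 0.47. Wars2 fell below the 60th percentile filter and has no value there. Causes were not tested. The median SE was 0.31 for mitochondrial and 0.18 for cytosolic synthetases.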

Other observations

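Of the 29 members with a RefSeq promoter entry, 8 start within 1000 bases of a gene on the opposite strand. Members without an entry were not searched. None of the 8 neighbours was called, where 11.2% of all genes were higher and 11.5% lower, so that a count of 0 in 8 is near the rate of all genes. Aimp2 was at 1.70 and its neighbour Pms2, a mismatch repair gene, at -0.26 (SE 0.24). Kars was at 1.07 and Terf2ip, which encodes a telomere protein, at -0.36 (SE 0.37). Yars was at 1.20 and S100pbp at -0.50 (SE 0.16), with a limma adjusted p of 0.051. Aimp1 was at 0.68 and Tbck at -0.45, and Rars2 at 0.86 and Orc3, a gene of the replication origin complex, at 0.35. The order was turned for Sars2, at -0.34, whose neighbour Mrps12, a mitochondrial ribosomal protein gene, was at 0.71 (SE 0.28, limma adjusted p = 0.098), and for Fars2, at -0.23, beside Lyrm4, a gene of iron-sulfur cluster assembly, at 0.46. Ears2 was at 0.37 and Ubfd1 at 0.19. The differences between neighbours were not tested.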
